A study of Mus musculus with 6 samples.

Results

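The Toll-like receptors are membrane receptors of innate immunity, and 10 of them in the mouse, Tlr1 to Tlr9 and Tlr13, were followed here in the heart after myocardial infarction (MI). A probe set was taken as a member when the array annotation gave it a single gene symbol and that symbol was one of the 10, and each of the 10 genes had 1 such probe set, out of 19050 protein-coding genes with a probe set of their own. The match of probe sets to genes used no measured value, but the 10 genes were chosen with earlier results of these data known. The MI group was peri-infarct tissue from the hearts of male C57BL/6 mice 4 weeks after ligation of the left anterior descending artery (3 arrays), and the sham group was the matching region of hearts of the same strain and sex 4 weeks after an operation without infarction (3 arrays). Total RNA of each sample was read on 1 mouse transcriptome array, a 1-colour array of the whole transcriptome. No source used here says whether each array stands for a separate mouse, so the p-values measure the spread between these samples only, and that spread may be partly technical. With 3 arrays against 3, an exact permutation test on 1 gene cannot go below p = 0.1, and the number of arrays limits the precision of every value.

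Each Toll-like receptor recognises a class of microbial molecule, and several are also known to respond to molecules released from injured tissue. Tlr1, Tlr2, Tlr4, Tlr5 and Tlr6 act at the cell surface on lipids and proteins, while Tlr3, Tlr7, Tlr8, Tlr9 and Tlr13 act in endosomes on nucleic acids. Ligand binding recruits the adaptor Myd88, or Ticam1 for Tlr3 and for part of the Tlr4 signal, and the signal passes through IRAK kinases, Traf6 and the TAK1 complex to NF-kB and IRF transcription factors. In the heart these receptors are known from resident and recruited macrophages, and some of them, Tlr4 among them, from cardiomyocytes, endothelial cells and fibroblasts as well.

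Of the 10 receptors, 8 were tested, and 3 of these (37.5%) rose in the peri-infarct region and 0 fell at a limma adjusted p under 0.05. Of all tested probe sets, 2.97% rose and 3.64% fell. With 1 array left out, 0 to 4 receptors passed. Tlr13, a sensor of bacterial ribosomal RNA in mice, rose by 1.36 on the log2 scale. Its sham signals lay under the highest background control of their arrays, and against those controls the rise was at least 1.15-fold. That bound is not firm, since the signal on MI replicate 3 also lay under the highest control of its array. Tlr8, an endosomal receptor of the single-stranded RNA branch, rose by 1.20 (2.30-fold), and Tlr4, the lipopolysaccharide receptor, rose by 0.92 (1.89-fold). Tlr2 and Tlr7 were higher on every MI array than on any sham array but did not pass the test, and Tlr3, Tlr5 and Tlr9 overlapped between the groups. Tlr1 and Tlr6 lay under the filter on low signals and were not tested.

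Upstream sequence was looked at for the members because those that were called could share letters near their start. RefSeq promoters of GRCm38.p6, 250 bases before to 50 bases after the start, were matched for 8 of the 10 members, with 10 entries, and Tlr4 and Tlr7 had no entry. The hexamer GAGGAA, the core letters bound by PU.1, an ETS-family factor of myeloid cells, was searched on both strands. It stood in an entry of 4 of the 8 members, Tlr1, Tlr8, Tlr9 and Tlr13. Of 32851 single mouse promoters of the same length, 28.3% held it. These shares differ in unit, since Tlr1 and Tlr6 had more than 1 entry and only 1 entry of Tlr1 held the hexamer. Tlr9 held it 2 times in its window, 1 of them within the 250 bases before the start. The 250 bases before the start are shown for Tlr8 and Tlr13, which were called, and for Tlr9, which holds the hexamer too and was not called, with the hexamer in capitals (for Tlr8 as its complement, TTCCTC, on the opposite strand).
Tlr8 (chrX:167264330-167264579, minus strand): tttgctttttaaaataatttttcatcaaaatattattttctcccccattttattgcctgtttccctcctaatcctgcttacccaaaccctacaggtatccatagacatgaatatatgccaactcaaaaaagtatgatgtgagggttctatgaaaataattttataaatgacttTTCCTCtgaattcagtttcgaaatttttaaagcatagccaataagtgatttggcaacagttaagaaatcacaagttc
Tlr13 (chrX:106143025-106143274, plus strand): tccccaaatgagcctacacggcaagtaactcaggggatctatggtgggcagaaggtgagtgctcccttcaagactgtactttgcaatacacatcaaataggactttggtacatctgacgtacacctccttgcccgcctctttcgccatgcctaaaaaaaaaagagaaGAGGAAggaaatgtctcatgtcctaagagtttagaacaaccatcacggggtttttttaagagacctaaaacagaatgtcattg
Tlr9 (chr9:106222348-106222597, plus strand): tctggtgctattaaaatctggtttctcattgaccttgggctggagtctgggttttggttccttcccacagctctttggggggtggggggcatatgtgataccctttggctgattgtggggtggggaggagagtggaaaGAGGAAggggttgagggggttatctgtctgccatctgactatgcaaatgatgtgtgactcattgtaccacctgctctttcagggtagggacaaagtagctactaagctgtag
The hexamer ended 72 bases before the start of Tlr8, 78 bases before that of Tlr13 and 107 bases before that of Tlr9. The letters GGGNNNNNCC, a loose form of the NF-kB site, were in 50.8% of all promoters and in entries of Tlr2, Tlr3, Tlr5 and Tlr6, among which none was called. The interferon element GAAANNGAAA was in 3.44% of all promoters and in an entry of Tlr6, and the AP-1 letters TGANTCA were in 7.81% and in the entry of Tlr9. These matches describe letters only, and the same hexamer stood before members that were called and members that were not.

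Values are log2 signals as the authors deposited them, a difference of 1 being a 2-fold change on that scale, and levels are not set against each other between genes because each probe set has its own brightness. MI and sham were compared with limma over 32979 probe sets that passed the filter on low signals, and a probe set is called where its Benjamini-Hochberg adjusted p over all of them is under 0.05. Of these, 2.97% were called higher in MI and 3.64% were called lower. The 3 MI signals all exceeded the 3 sham signals for 15.0% of them, and all were under the sham signals for 16.8%. Among the 8 tested members, 3 (37.5%) were called higher, 0 were called lower and 5 (62.5%) had all MI signals above all sham signals. At an unadjusted p under 0.05 limma gave 5 members, all higher in MI, and the methods' t-test with the same adjustment called 2. The median difference was 0.77 over the 8 tested members and 0.45 over all 10, against 0.01 over all tested probe sets and -0.05 over the 12024 protein-coding genes tested. All 8 would have passed the filter on their sham mean alone. Tlr4 and Tlr8 also stand in a pathway table that the study drew from these samples, so their direction is not independent of it, whereas Tlr13 does not stand there.

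Among the receptors of the cell surface, Tlr4 forms the lipopolysaccharide receptor with MD-2 (Ly96). Its log2 signal was 10.76, 10.85 and 10.77 on the MI arrays, against 9.78, 9.97 and 9.86 on the sham arrays. All 3 MI arrays lay above all 3 sham arrays, and the lowest MI array exceeded the highest sham array by 0.79. The means were 10.79 ± 0.049 in MI and 9.87 ± 0.096 in sham (SD, n = 3 each), a difference of 0.92 (SE 0.09, 95% interval 0.70 to 1.15, limma adjusted p = 0.0131).

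Tlr2 pairs with Tlr1 or Tlr6 to bind bacterial lipopeptides. Its log2 signal was 7.50, 7.53 and 6.82 on the MI arrays, against 6.36, 6.30 and 6.56 on the sham arrays. MI replicate 3 stood apart from the other MI arrays toward the sham level and still lay 0.27 above the highest sham array. The difference of 0.88 was nearly that of Tlr4, but its SE was 0.21, its 95% interval 0.37 to 1.39 and its limma adjusted p = 0.0631.

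The partners of Tlr2 were dim. Tlr1 had log2 signals of 4.16, 4.17 and 4.21 in MI, against 3.87, 3.98 and 4.04 in sham, all under the filter value of 4.36. Tlr6 had 4.09, 4.38 and 4.08 in MI, against 4.38, 4.22 and 4.64 in sham. Tlr1 was higher on every MI array, by 0.22 on average, whereas the Tlr6 groups overlapped with a difference of -0.23. With no filter, limma gave an adjusted p = 0.280 for Tlr1 (95% interval 0.01 to 0.42) and 0.514 for Tlr6 (95% interval -0.58 to 0.12). Tlr5, the receptor of bacterial flagellin, had 5.30, 5.28 and 5.17 in MI, against 4.95, 5.18 and 5.26 in sham, above the highest background control on 1 of 3 MI arrays and 0 of 3 sham arrays, and the groups overlapped (difference 0.12, 95% interval -0.16 to 0.39, limma adjusted p = 0.564).

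Among the receptors of the endosome, Tlr13 had log2 signals of 5.97, 6.04 and 5.91 in MI, against 4.41, 4.47 and 4.97 in sham. The MI arrays lay close together, sham replicate 3 was the highest of the sham arrays, and the gap between the groups was 0.94. The difference was 1.36 (SE 0.17, 95% interval 0.95 to 1.77, limma adjusted p = 0.0172). The highest of the 23 background controls lay between 5.12 and 6.08 over the 6 arrays, and Tlr13 was above that of its own array on 2 of 3 MI arrays and on 0 of 3 sham arrays. Where no sham array exceeds its highest control, the sham level is only a bound. A fold is then given as a lower bound, the MI mean over the mean of the highest controls of the 3 sham arrays. For Tlr13 it is not firm, because MI replicate 3 lay under its own highest control too.

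Tlr8 had log2 signals of 7.29, 7.64 and 7.34 in MI, against 6.24, 6.19 and 6.22 in sham. The 3 sham arrays were nearly alike (SD 0.026) and every MI array lay at least 1.05 above them. The difference was 1.20 (SE 0.12, 95% interval 0.92 to 1.49, limma adjusted p = 0.0131). Tlr7, a receptor of single-stranded RNA whose gene neighbours Tlr8 on the X chromosome, had 7.39, 7.98 and 7.26 in MI, against 6.70, 6.83 and 7.10 in sham. MI replicate 2 stood above the other MI arrays, and the gap between the groups was 0.16. The Tlr7 difference of 0.66 did not pass the test (SE 0.22, 95% interval 0.14 to 1.19, limma adjusted p = 0.126). Whether Tlr7 and Tlr8 differed in their response was not tested.

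Tlr9, the receptor of unmethylated CpG DNA, had log2 signals of 5.08, 5.31 and 4.86 in MI, against 4.77, 4.80 and 4.98 in sham, under the highest background control on all 6 arrays. The groups overlapped (difference 0.23, 95% interval -0.11 to 0.58, limma adjusted p = 0.360). Tlr3, which binds viral RNA duplexes and signals through Ticam1 alone, had 7.77, 7.96 and 7.88 in MI, against 7.71, 7.79 and 7.69 in sham. Its groups overlapped as well, and its 95% interval, -0.09 to 0.36, lay under the lower bound of the interval of each called member (difference 0.14, limma adjusted p = 0.402).

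**Figure D1:**
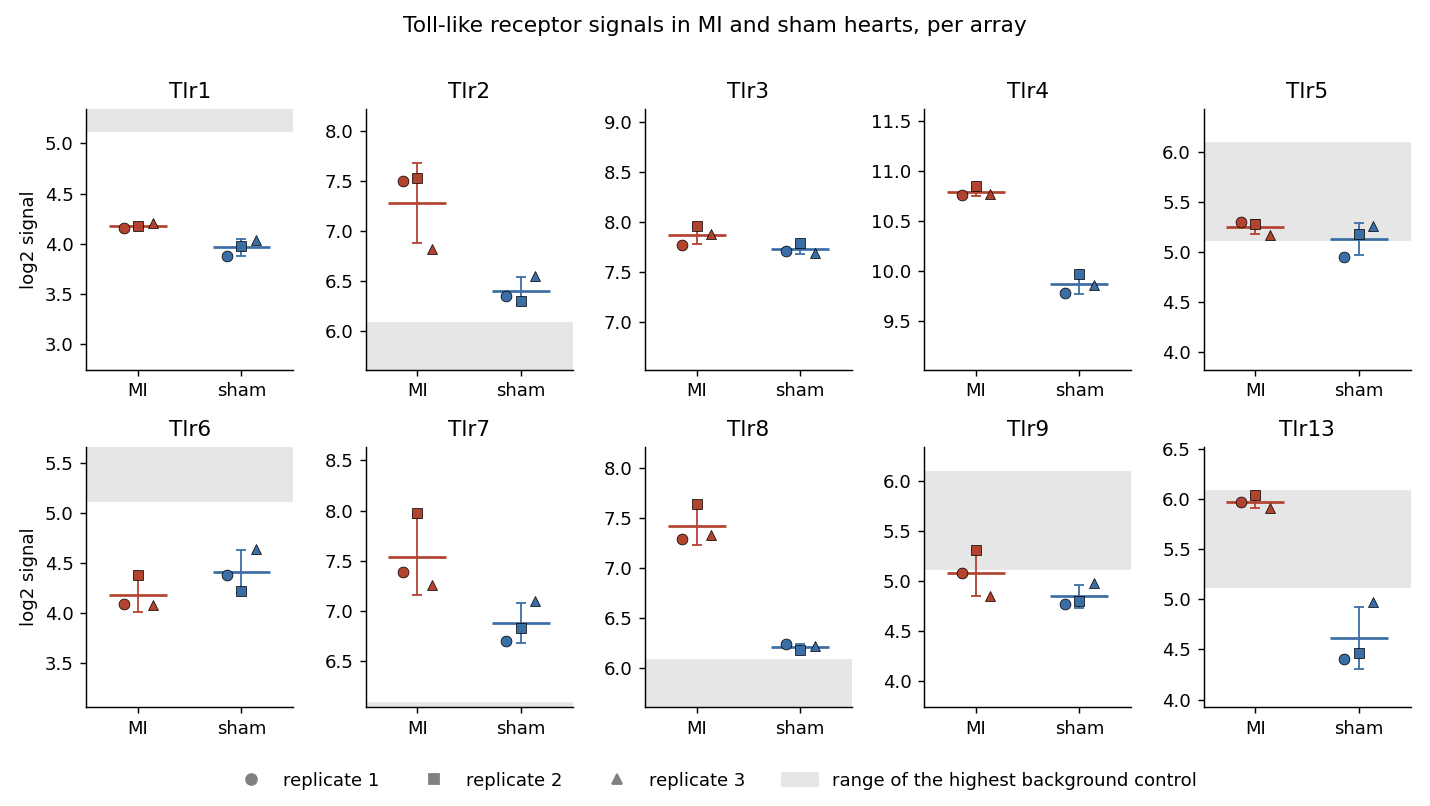
Log2 signal of each of the 10 Toll-like receptors on the MI arrays (left, red) and the sham arrays (right, blue), with a horizontal line at the mean, bars for the SD (n = 3 each) and a grey band for the range of the highest background control per array; each panel spans the same height of the log2 axis. The 3 MI arrays stand clear of the 3 sham arrays for Tlr13, Tlr8 and Tlr4, with gaps of 0.94, 1.05 and 0.79, and by less for Tlr2, Tlr7 and Tlr1.

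**Figure D2:**
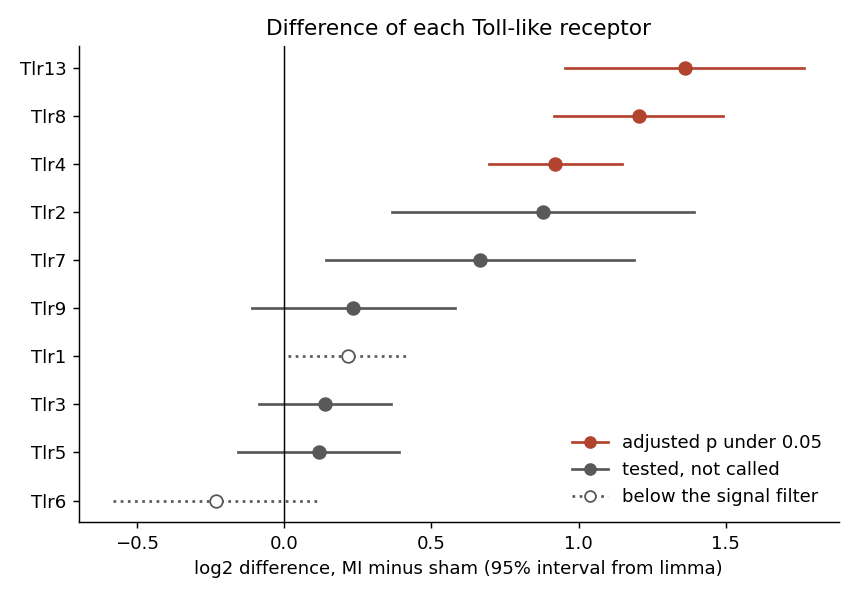
Difference of the mean log2 signals, MI minus sham, for each receptor (points) with its 95% interval from limma (lines); open points with dotted lines are the 2 receptors under the signal filter, with intervals from the fit with no filter. Only Tlr13, Tlr8 and Tlr4 (red) passed the adjusted threshold, at 1.36, 1.20 and 0.92.

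Outside the set of 10, Tlr11 and Tlr12 were read as well. Tlr11 did not pass the test (difference -0.03, limma adjusted p = 0.892), and Tlr12 lay under the filter.

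The calls depended on single arrays. Leaving out MI replicate 1, sham replicate 2 or sham replicate 3 left 0 members called (5, 4 and 5 at an unadjusted p under 0.05), and limma then called 0 of all 32979 probe sets, with 6013, 6090 and 6340 of them at an unadjusted p under 0.05. Without MI replicate 2 limma called only Tlr8 (adjusted p = 0.0476), and without sham replicate 1 it called Tlr4 and Tlr8 (adjusted p = 0.0496 each). Without MI replicate 3 it called 4 members, the 3 named above and Tlr2 (adjusted p = 0.00609). The sizes moved little over these 6 fits, from 0.88 to 0.97 for Tlr4, from 1.10 to 1.27 for Tlr8 and from 1.26 to 1.54 for Tlr13. The direction of each tested member stayed positive throughout. The limma adjusted p over these fits ran from 0.00705 to 0.0810 for Tlr4, from 0.00651 to 0.0844 for Tlr8 and from 0.0131 to 0.0923 for Tlr13. Every call reported for other genes lost its adjusted p under 0.05 without MI replicate 1, sham replicate 2 or sham replicate 3 in the same way.

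**Figure D3:**
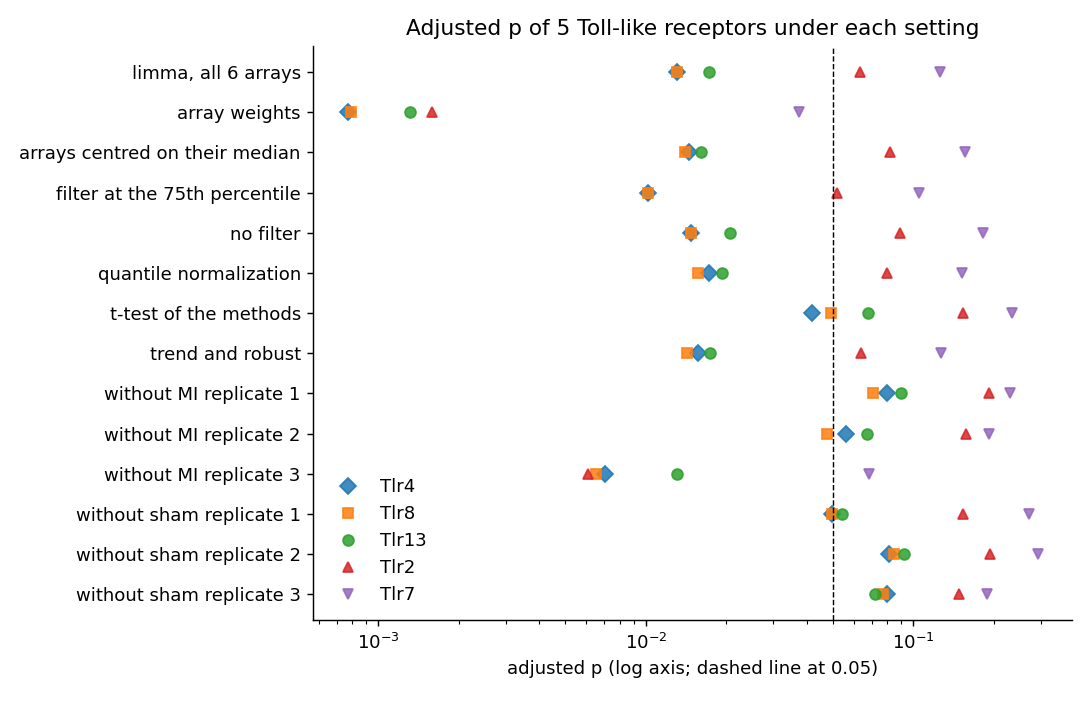
Adjusted p (log axis, dashed line at 0.05) of Tlr4, Tlr8, Tlr13, Tlr2 and Tlr7 under limma on all 6 arrays and under other settings of the fit. Tlr4, Tlr8 and Tlr13 lie left of the line under limma on all 6 arrays, and Tlr13 lies right of it under the methods' t-test (adjusted p = 0.0677). All 5 lie right of it without MI replicate 1, sham replicate 2 or sham replicate 3. The fit with the replicate number as a block is not shown (limma adjusted p = 0.0883 for Tlr4, Tlr8 and Tlr13).

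MI replicate 3 was the lowest MI array for Tlr2, Tlr5, Tlr6, Tlr7, Tlr9 and Tlr13, and was not the lowest for Tlr1, Tlr3, Tlr4 or Tlr8. Among the sham arrays, replicate 3 was highest for Tlr1, Tlr2, Tlr5, Tlr6, Tlr7, Tlr9 and Tlr13, but not for Tlr3, Tlr4 or Tlr8.

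Profiles most like those of the 3 members with the largest differences were looked up among 12023 other protein-coding genes, by the root mean square difference of the signals over the 6 arrays after each gene's mean was taken off. Nearest to Tlr13 were Itm2a (0.131), Cd53 (0.14) and Vcam1 (0.151), in log2 units. Nearest to Tlr8 were Ms4a6b (0.0516), Pi15 (0.0993) and Ifi204 (0.107). Nearest to Tlr4 were Lpcat2 (0.0349), Alcam (0.0533) and Abca9 (0.0707). Ms4a6b gives an example of the likeness, with 6.90, 7.37 and 7.11 in MI, against 5.96, 5.86 and 5.93 in sham. All 9 genes were called higher, as the choice by likeness to a called member makes likely, and no test was made on them.

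Because the tissue was read in bulk, more cells of a type and more RNA per cell cannot be told apart. Of 12 macrophage markers, all tested, 5 rose and 0 fell, with a median difference of 0.74. From this list Lyz2 (1.90), Ptprc (1.35), Adgre1 (1.25), Mrc1 (1.06) and Cx3cr1 (0.71) were called, whereas the methods' t-test with the same adjustment called 0 of the 12. Ptprc is a gene of leukocytes in general, and Lyz2 is also one of neutrophils, so neither is particular to macrophages. Csf1r, the receptor of the macrophage growth factor, did not pass (difference 0.78, limma adjusted p = 0.161). Cd163, a scavenger receptor of resident macrophages, was lower on all 3 MI arrays than on any sham array, but by a gap of only 0.003. It did not pass the test (difference -0.52, limma adjusted p = 0.216). Mertk, a receptor for the uptake of dying cells, differed by 0.07 (limma adjusted p = 0.797). The mean log2 signal over the 12 markers was 8.28, 8.37 and 7.98 in MI, against 7.23, 7.57 and 7.63 in sham. These means, like the signals of Tlr13, Tlr8 and Tlr4, were higher on each MI array than on any sham array. The same held for the means over the dendritic cell, B cell, T cell and fibroblast lists. The part of the macrophage markers in the receptor differences was not tested. Without MI replicate 3 limma called 7 macrophage markers, without sham replicate 1 it called 2, and without MI replicate 2 it called 0.

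Markers of other leukocytes were low. Of 8 neutrophil markers 3 were tested and limma called 0, with 0 at an unadjusted p under 0.05 and 0 by the methods' t-test, and their mean over the list was 4.22, 4.29 and 4.39 in MI, against 4.11, 4.10 and 4.23 in sham. Of 7 dendritic cell markers 4 were tested and limma called 1, Itgax, higher, with 0 called by the methods' t-test. Itgax passed the filter only through its MI signals (sham mean 4.18). It lay under the highest background control on all 6 arrays, so no rise is read from this call. Among B cell markers 2 of 5 were tested and 0 were called, and among T cell markers 1 of 6 was tested and 0 were called, with 0 and 1 at an unadjusted p under 0.05 and 0 by the methods' t-test. The T cell marker tested, Cd3g (sham mean 4.31), and the B cell marker Cd79b (sham mean 4.35) also passed the filter only through MI signals. Among fibroblast markers 5 of 6 rose by limma, with a median of 2.92, and the methods' t-test called 2. Limma called 0 of 6 endothelial markers, with 2 at an unadjusted p under 0.05 and 0 by the methods' t-test. The part of these cells in the receptor differences was not tested either. Cardiomyocyte markers were bright on all arrays, with means of 17.29, 17.15 and 17.39 in MI, against 17.56, 17.57 and 17.56 in sham, as in heart tissue. Of the 8, all differed in the negative direction and 6 were lower on all 3 MI arrays than on any sham array, while limma called 0, with 4 at an unadjusted p under 0.05 and 0 by the methods' t-test. Actc1 and Tnnt2 stood at or next to the highest signal of each array, where a change may not show. Without MI replicate 3 limma called 3 cardiomyocyte markers lower and 2 dendritic cell markers higher, and without MI replicate 2 or sham replicate 1 it called 3 fibroblast markers and 0 dendritic cell markers.

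**Figure D4:**
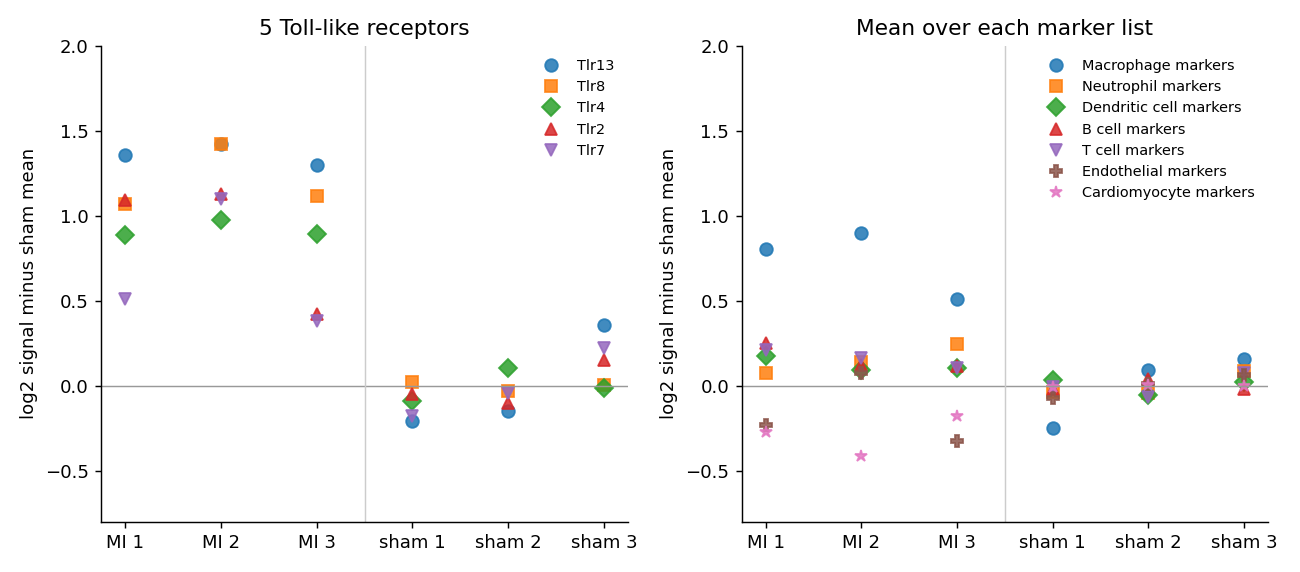
Log2 signal on each array minus the mean of the 3 sham arrays, for the 5 tested Toll-like receptors whose groups did not overlap (left) and for the mean over the markers of 7 cell types (right); the line between the groups separates MI (left) from sham (right). The macrophage list stands above its sham mean on the 3 MI arrays. The dendritic cell, B cell and T cell lists are also higher on each MI array than on any sham array, by less. The neutrophil list overlaps between the groups, and the fibroblast list is not shown.

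The co-receptors and chaperones of the family were the next step of the pathway, and 12 were tested, of which 1 rose and 0 fell (median 0.19), with 5 at an unadjusted p under 0.05 and 0 called by the methods' t-test. Ly86 (MD-1), the partner of Cd180, a Toll-like receptor homologue of B cells and macrophages, had log2 signals of 10.29, 10.47 and 10.07 in MI, against 8.03, 8.71 and 9.001 in sham. It rose by 1.69 (SE 0.26, limma adjusted p = 0.0246), and its groups did not overlap. Cd14, which hands lipopolysaccharide to Tlr4, had 6.89, 6.70 and 5.99 in MI, against 5.52, 5.71 and 5.71 in sham. Cd180 had 6.68, 6.69 and 5.84 in MI, against 5.53, 5.43 and 5.60 in sham. Both were higher on every MI array, with replicate 3 the lowest of the MI arrays as for Tlr2, and neither passed the test (differences 0.88 and 0.89, limma adjusted p = 0.0839 and 0.0853). Both lay under the highest background control on all 3 sham arrays. Ly96, the MD-2 subunit of the Tlr4 complex, overlapped between the groups (difference 0.16, 95% interval -0.44 to 0.77, limma adjusted p = 0.727). Unc93b1, which carries the nucleic acid receptors to the endosome, overlapped too, with a difference of 0.60 (95% interval 0.03 to 1.16, limma adjusted p = 0.185). Cd36, a fatty acid transporter and co-receptor of Tlr2, overlapped between the groups (difference -0.31, limma adjusted p = 0.315), and it was called lower with quantile normalization (-0.58, adjusted p = 0.0282), with array weights (-0.47, adjusted p = 0.0120) and without MI replicate 3 (-0.49, adjusted p = 0.0290). Without MI replicate 3 limma called 4 genes of this list higher and 1 lower, and without MI replicate 2 it called 0.

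The adaptors showed no call. Of 5 adaptors 4 were tested and limma called 0, with 0 at an unadjusted p under 0.05 and 0 by the methods' t-test (median -0.01). Myd88, used by every member except Tlr3, had log2 signals of 6.66, 7.43 and 6.81 in MI, against 6.74, 7.73 and 7.57 in sham. Its difference was -0.38 with a wide 95% interval, -1.17 to 0.40 (limma adjusted p = 0.511). Tirap, which bridges Tlr2 and Tlr4 to Myd88, differed by -0.10 (95% interval -0.33 to 0.12). Ticam1, the adaptor of Tlr3, differed by 0.08 (95% interval -0.30 to 0.46), and Ticam2, its bridge to Tlr4, by 0.11 (95% interval -0.15 to 0.37). All 4 overlapped between the groups.

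In the list of IRAK kinases, TRAF proteins and the TAK1 complex, 9 genes were tested, 0 rose and 2 fell (median -0.16), with 1 called by the methods' t-test. Irak1, Irak4 and Traf3 had no probe set of their own and were not analysed here. Ecsit, a Traf6-binding protein that is also an assembly factor of mitochondrial complex I, had log2 signals of 9.82, 9.81 and 9.65 in MI, against 10.75, 10.89 and 10.89 in sham, and fell by 1.08 (limma adjusted p = 0.0119). Ecsit also stands in another pathway list that the study drew from these samples. Tab1, an activator of the TAK1 kinase, had 6.94, 6.58 and 6.81 in MI, against 7.59, 7.47 and 7.43 in sham, and fell by 0.72 (limma adjusted p = 0.0294), a call that the methods' t-test did not make (adjusted p = 0.0794). For both genes the highest MI array was under the lowest sham array. Without MI replicate 2 limma called 0 of these 9 genes, without sham replicate 1 it called 1, and without MI replicate 3 it called 2 lower and 1 higher.

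Further down, Chuk and Nfkb1 had no probe set of their own, and 12 other genes of the IKK, NF-kB and IRF step were tested and limma called 0, with 3 at an unadjusted p under 0.05 and 0 by the methods' t-test (median 0.18). The NF-kB subunits Rela and Rel overlapped between the groups, with differences of 0.17 (95% interval -0.56 to 0.89) and -0.20 (95% interval -0.67 to 0.27). Among genes that restrain Toll-like receptor signalling, 13 of 16 were tested, 1 rose and 1 fell (median 0.23), with 1 called by the methods' t-test. Lilrb4a, an inhibitory receptor of myeloid cells, had 10.20, 10.38 and 9.64 in MI, against 7.59, 8.47 and 8.47 in sham, and rose by 1.90 (limma adjusted p = 0.0265). Tollip, which holds IRAK kinases back, had 7.87, 7.85 and 7.90 in MI, against 8.34, 8.28 and 8.27 in sham, and fell by 0.42 (limma adjusted p = 0.0391). The groups did not overlap for either gene. The call of Lilrb4a was lost with the methods' t-test (adjusted p = 0.0978), and that of Tollip was lost with no filter (limma adjusted p = 0.0527). Without MI replicate 2 or sham replicate 1 limma called 0 genes of the restraint list, and without MI replicate 3 it called 4 higher and 2 lower.

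Of 19 secreted or inducible targets of the pathway only 7 passed the filter, and 1 rose and 0 fell (median 0.26), with 2 at an unadjusted p under 0.05 and 0 called by the methods' t-test. Ptgs2, the inducible cyclooxygenase, had log2 signals of 7.68, 7.64 and 6.28 in MI, against 5.12, 5.49 and 5.10 in sham (difference 1.97, limma adjusted p = 0.0419). Its sham signals lay under the highest background control, against which the rise was at least 2.70-fold. MI replicate 3 was the lowest of the MI arrays, and the call was lost with no filter (limma adjusted p = 0.0576). Without MI replicate 2 or sham replicate 1 limma called 0 genes of this list, and without MI replicate 3 it called 2.

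Matrix proteins and cell-derived proteins described as ligands of Tlr2 or Tlr4 had the largest median difference of the pathway lists counted here. Of 11 with a probe set 8 were tested, 6 rose and 0 fell by limma, with a median of 1.79, and the methods' t-test called 2. Tnc, 1 of the 6, passed the filter only through its MI signals (sham mean 4.31). Its sham signals lay under the highest background control, against which the rise was at least 1.09-fold. That bound is not firm, since its signal on MI replicate 3 also lay under the highest control of its array. Hmgb1 had no probe set of its own. Fibronectin (Fn1) had 14.47, 14.69 and 12.86 in MI, against 8.84, 9.38 and 9.26 in sham, a rise of 4.85 (limma adjusted p = 0.0131). The small proteoglycans lumican (Lum) and biglycan (Bgn) rose by 3.03 and 2.20, and versican (Vcan) rose by 1.98 (limma adjusted p = 0.0131, 0.0258 and 0.0151). None of these 4 was called by the methods' t-test (adjusted p from 0.0587 to 0.0974), and Bgn was not called after quantile normalization either (1.96, limma adjusted p = 0.0804). Fn1, Tnc and Dcn, another called gene of this list, also stand in other pathway lists that the study drew from these samples. The mitochondrial chaperone Hspd1 was lower on all 3 MI arrays than on any sham array without passing the test (difference -0.58, limma adjusted p = 0.132). The matrix genes named here are also genes of the fibroblast, and the fibroblast markers rose beside them as given above. The lists are not separate, since Dcn stands in both and is counted as called in each. Without MI replicate 2 or sham replicate 1 limma called 4 of the 8, and without MI replicate 3 it called 6 higher and 1, Hspd1, lower. The study lists Ctsk with Tlr4, Tlr8 and Spp1 in the receptor pathway, and Spp1 had no probe set of its own. Ctsk, a collagen-cleaving protease, had 7.22, 6.52 and 6.56 in MI, against 4.56, 4.72 and 4.67 in sham. It rose by 2.12 (SE 0.20, limma adjusted p = 0.0126), or at least 2.0-fold over the highest background control, under which its sham signals lay, and since that list was drawn from these samples its direction is not independent of it. Ctsk was not called without MI replicate 2 (limma adjusted p = 0.0514) or by the methods' t-test (adjusted p = 0.0556).

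**Figure D5:**
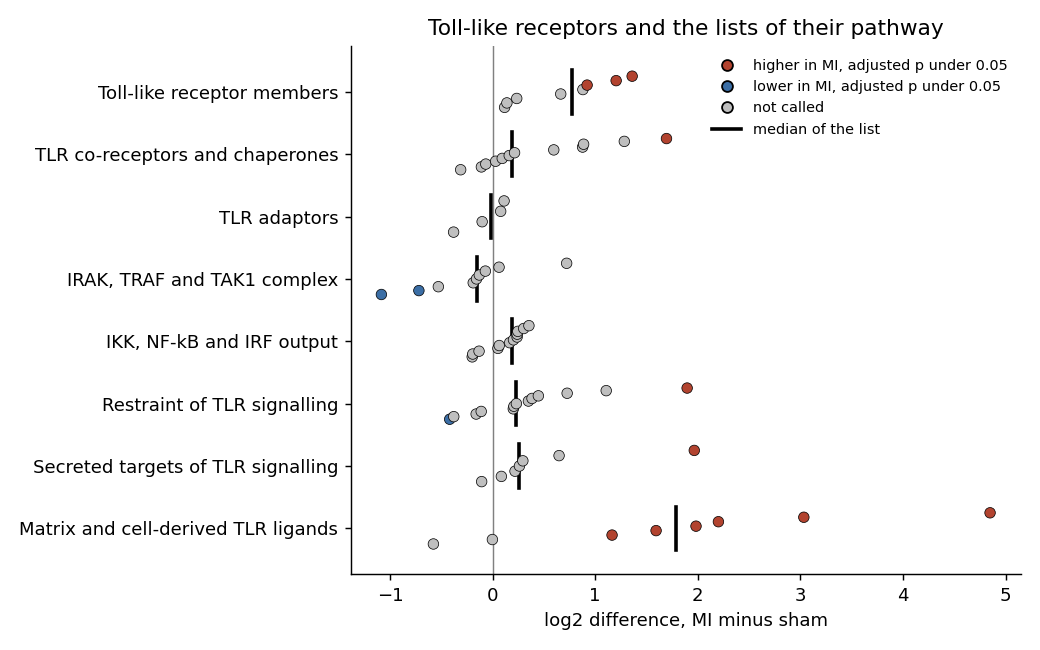
Log2 difference, MI minus sham, of each tested gene (points) of the 10 receptors and of 7 lists along their pathway, with red for genes called higher, blue for genes called lower and a black bar at the median of each list; the height of a point within its list only separates it from the others. The receptors have a median of 0.77, the adaptors of -0.01 and the matrix and cell-derived ligands of 1.79.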

How the data were processed

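Total RNA of 3 MI and 3 sham samples was read on 1-colour mouse transcriptome arrays. The authors summarised probes with RMA and SKETCH normalization in Affymetrix Expression Console, and the deposited values are log2 signals, used here with no further normalization. They reach 19.93, above the 16 of a 16-bit scanner, so differences hold on the deposited scale. For the array annotation, the genome build was not given in the sources used here. Of 72688 probe sets, 6732 controls were left out. Symbols came from the platform annotation and RefSeq (GRCm38.p6). Of the 65956 transcript probe sets, 30638 had 1 symbol, 2176 had several and 33142 had none; probe sets with several symbols were tested but name no gene. A gene was represented by its probe set with the highest mean. Probe sets with a mean over the 6 arrays at or above the 50th percentile (log2 4.36) were kept.

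MI was set against sham with limma 3.58.1 (lmFit and eBayes) in R 4.3.3, with Benjamini-Hochberg adjustment over the 32979 probe sets tested. The fit was tested on simulated data. Lists run from co-receptors to secreted targets, ligands and cell markers. Named genes were the 10 members, 10 fixed pathway genes and the nearest profiles. Up to 4 called genes of each list with the largest differences were named too, or, where none was called, the 2 brightest. The called macrophage markers, Csf1r, Cd163, Mertk, Cd36, Hspd1, Tnc, Dcn, Itgax, Cd3g, Cd79b, Actc1 and Tnnt2 were named after their values were seen. The members and lists were chosen with earlier results of these data known. Alternatives were other filters, normalizations, limma options, array weights, the methods' t-test, the replicate number as a block and leaving out each array. The table holds 0 columns of other samples. Array medians were 4.44 to 4.52 in MI and 4.43 to 4.44 in sham.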

Additional observations from a re-analysis of the deposited data

How the results depend on the processing

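Limma called 2180 probe sets on all 6 arrays, 10760 with array weights, 272 with the methods' t-test and 0 with the replicate number as a block (7078 at an unadjusted p under 0.05). Leaving out 1 array gave 0 to 4687 (0 without MI replicate 1, sham replicate 2 or sham replicate 3, 61 without MI replicate 2, 327 without sham replicate 1 and 4687 without MI replicate 3). The split of higher and lower calls was 980 to 1200, and it was 835 to 1570 after centring each array on its median and 750 to 1512 after quantile normalization. Members called numbered 3, and were 5 with array weights (Tlr2 and Tlr7 added), 0 with the block (5 at an unadjusted p under 0.05), 2 with the t-test (Tlr13 lost, adjusted p = 0.0677), 2 with the filter at the 75th percentile (Tlr13 not tested there) and 0 to 4 when 1 array was left out. The cause of these differences was not tested. The block is an alternative only, since the arrays share no more than a number: deviations of the same-numbered arrays from their group means correlated at -0.29, 0.35 and -0.37. The median difference of the tested members was 0.60 to 0.87 when 1 array was left out, and no tested member changed direction. Other genes near 0 did: Ly96 was -0.040 with array weights and -0.12 to 0.35 with 1 array left out, and with 1 array left out Rela ran from -0.022 to 0.49, Rel from -0.31 to 0.010 and Tlr11 from -0.10 to 0.0092. Each member had 1 probe set, so a mean over probe sets could not change a value. Signals under the highest background control, of Tlr9 on all arrays, of Tlr13 on all sham arrays and of Tlr5 on all but 1 MI array, and of Tlr1 and Tlr6 under the filter, limit what these differences can show.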

Other observations

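The receptors of the interleukin-1 family share the intracellular TIR domain with the Toll-like receptors. Of 11 genes of this family and its ligands 6 were tested, 2 rose and 0 fell (median 0.68), with 4 at an unadjusted p under 0.05 and 0 called by the methods' t-test. Il33, a cytokine released from damaged cells, had log2 signals of 6.56, 6.93 and 7.37 in MI, against 5.51, 5.44 and 5.48 in sham (difference 1.48, limma adjusted p = 0.0211). Its sham signals lay under the highest background control, against which the rise was at least 2.27-fold. Il1rl2, the receptor of interleukin-36, had 6.89, 7.02 and 6.51 in MI, against 5.98, 6.18 and 6.09 in sham (difference 0.72, limma adjusted p = 0.0485). The call of Il1rl2 was lost after centring each array on its median (limma adjusted p = 0.0684), with no filter (0.0674) and after quantile normalization (0.0646). For both genes the lowest MI array exceeded the highest sham array.

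Among other innate sensors 15 of 17 were tested, 2 rose and 1 fell by limma (median 0.33), and the methods' t-test called 0. The C-type lectin receptors Clec7a (dectin-1) and Clec4n (dectin-2) rose by 0.98 and 0.97 (limma adjusted p = 0.0311 and 0.0181), with sham signals under the highest background control, against which the rises were at least 1.65-fold and 1.37-fold. Clec4n had log2 signals of 6.13, 6.26 and 6.28 in MI, against 5.05, 5.43 and 5.27 in sham. Mavs, the mitochondrial adaptor of the cytosolic RNA sensors, had 9.86, 9.80 and 9.57 in MI, against 10.41, 10.85 and 10.75 in sham, and fell by 0.93 (limma adjusted p = 0.0269). All of these calls were lost without MI replicate 1, MI replicate 2, sham replicate 2 or sham replicate 3, and of the 5 only Mavs was called without sham replicate 1. Limma called 4 genes of the interleukin-1 family and 5 of the other sensors without MI replicate 3.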
